A study of Mus musculus with 8 samples.

Results

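Matrix proteases and their inhibitors were followed in kidney RNA of diabetic db/db mice and normal mice. The rule goes by gene name: it takes every probe whose gene name starts with Mmp and a digit or with Adamts, and the probes of Timp1, Timp2 and Timp4. They came to 100 of the 56601 probes on the array and to 50 of its 36824 genes, namely 23 matrix metalloproteinases (Mmp), 19 Adamts genes, 5 Adamts-like genes (Adamtsl) and 3 inhibitors (Timp). The study gave db/db mice a mimic of miR-181b-5p and measured kidney RNA on 1-colour Agilent arrays. There were 4 groups of 2 samples each, all male, of strain C57BLKS/J Iar and aged 20 weeks. One group of Leprdb/Leprdb mice received PEI nanoparticles with a miRNA-181b-5p mimic, another received nanoparticles with a control miRNA, another was left untreated, and the normal group was m+/m+. The leptin receptor mutation is thus shared by all 3 groups other than normal, and no group received nanoparticles without any miRNA. The labels used here state no dose, route or schedule. RNA came from whole kidney, so fewer cells of a type and less RNA per cell cannot be told apart. The labels number the samples within a group, and where 2 samples of a group are not separate animals the p-values below measure technical spread only.

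Matrix metalloproteinases are zinc-dependent enzymes that cut collagens, laminins, fibronectin and other matrix proteins; most are made as inactive proenzymes and are opened by other proteases. ADAMTS enzymes carry thrombospondin repeats that hold them to the matrix, where some cut proteoglycans and others trim procollagens, while ADAMTS-like proteins share the repeats but lack the protease domain. TIMPs are small secreted proteins that plug the active site of metalloproteinases. In kidney these enzymes turn over the glomerular basement membrane and the interstitial matrix, and loss of balance between them is a known feature of renal scarring.

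The mimic carries the sequence of mature miR-181b-5p, shown to name what the mimic group received. Of the comparisons with the mimic group, only that with control miRNA has nanoparticles in both groups. Untreated db/db mice differ from it by the nanoparticles as well, and normal mice by the nanoparticles and the genotype. RefSeq (GRCm38.p6) lists the same mature sequence from 2 loci, Mir181b-1 on chromosome 1 and Mir181b-2 on chromosome 2. Capitals mark the seed, bases 2 to 8.
mmu-miR-181b-5p: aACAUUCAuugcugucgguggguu
The DNA complement of the seed, TGAATGT, was searched on the sense strand in the 60-base probes only, not in whole transcripts. It lay in 1 of the 100 probes of the proteases and inhibitors, against 458 of all 56601 probes (0.809%). That probe reads Adamts9, an enzyme that cuts versican and aggrecan, at chr6:92795656-92795715 (mm9, minus strand). Its stretch around the match is shown with the match in capitals.
Adamts9: tgaattagaaaTGAATGTatgtttctttt
On this probe the level was -2.78 and -3.59 in mimic kidney, against -2.60 and -2.78 in control miRNA kidney, a log2 difference of -0.49 (adjusted p = 0.624 over all probes). The lower control array and the higher mimic array both read -2.78, and the difference did not pass the test. A match of these letters is a description of the probe, not a site.

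A block of 10 Mmp genes on chromosome 9 has its probes within 416.8 kb of each other on mm9. Their promoters were picked for levels seen in these same data. Mmp7 and Mmp8 from this block stood high on 1 array, and Mmp3 from it passed the detection limit on that array alone. Mmp13 from it was lower in mimic than in normal kidney. RefSeq promoters (GRCm38.p6, 250 bases before to 50 after each start) were found for 35 of the 50 genes, 38 promoters in all. The AP-1 element TGACTCA was searched on both strands, where it reads TGACTCA or TGAGTCA. It lay in 7 of the 12 Mmp promoters on chromosome 9, those of Mmp1a, Mmp1b, Mmp3, Mmp7, Mmp10, Mmp12 and Mmp13, and in no other promoter of the set. Of all 32851 promoters of this length, 1709 (5.2%) held it. Capitals mark the element, whose first base lies at -63 in Mmp7, -46 in Mmp3 and -35 in Mmp13, counted from the start site.
Mmp7 promoter, chr9:7691840-7692139 (+): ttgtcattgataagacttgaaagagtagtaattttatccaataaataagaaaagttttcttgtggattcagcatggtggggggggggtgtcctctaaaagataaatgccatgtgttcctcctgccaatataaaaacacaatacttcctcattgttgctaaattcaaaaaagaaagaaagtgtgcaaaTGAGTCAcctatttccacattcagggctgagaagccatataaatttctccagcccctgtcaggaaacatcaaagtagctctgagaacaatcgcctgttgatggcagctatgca
Mmp3 promoter, chr9:7445572-7445871 (+): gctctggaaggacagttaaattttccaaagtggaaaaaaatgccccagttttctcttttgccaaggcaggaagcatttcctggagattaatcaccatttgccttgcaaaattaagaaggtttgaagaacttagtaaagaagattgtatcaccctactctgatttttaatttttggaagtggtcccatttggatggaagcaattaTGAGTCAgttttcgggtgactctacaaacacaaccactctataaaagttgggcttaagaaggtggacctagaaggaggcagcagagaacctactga
Mmp13 promoter, chr9:7272264-7272563 (+): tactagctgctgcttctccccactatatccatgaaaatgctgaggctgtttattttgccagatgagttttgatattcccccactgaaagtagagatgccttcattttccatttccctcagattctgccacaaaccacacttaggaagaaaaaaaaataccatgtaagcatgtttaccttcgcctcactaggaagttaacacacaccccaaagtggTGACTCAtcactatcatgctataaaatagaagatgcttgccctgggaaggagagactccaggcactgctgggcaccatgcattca
All 3 hold the element once, before the start site, as TGACTCA in Mmp13 and as TGAGTCA in Mmp7 and Mmp3. A second promoter of Mmp7, at chr9:7692091-7692390, and another of Mmp12, at chr9:7344147-7344446, held no match. The Mmp8 promoter on the same block held no match, which says only that these letters are not in this window. Mmp1a, Mmp1b and Mmp10 held the element and were well above background on no array. Mmp12 and Mmp13 held it and were not well above background on mimic replicate 1, the array where Mmp7 stood high. A part of the element in these levels was not tested.

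Between 56.5% and 62.5% of spots lay well above background on an array, which is the scanner software's own call, and 0 spots were saturated. Levels are given as log2 of the intensity relative to the 75th percentile of the array, so 0 is that percentile, and a level of 1 probe cannot be set against that of another. All 8 arrays shared 1 slide and 1 scan. Array row separated the nanoparticle groups from the others, and array column separated mimic and untreated from control miRNA and normal samples. In every comparison row, column or both thus cannot be told apart from the groups. Replicates correlated at r = 0.976 in the mimic group, 0.995 after control miRNA, 0.997 in untreated db/db and 0.992 in normal kidney. Mimic replicate 1 stood apart on the first principal component (82.2, against 16.7 for mimic replicate 2 and -53.8 to 4.79 elsewhere), and counts below are given with and without it. Kidney markers were present, with 8 of 8 proximal tubule and 5 of 5 podocyte markers well above background on all arrays.

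To be tested, a probe had to be called well above background on each array of some group, which 46 of the 100 probes and 32 of the 50 genes were (12 Mmp, 13 Adamts, 4 Adamtsl and 3 Timp). Of these genes, 24 lay well above background on all 8 arrays. A gene with several such probes is given by the one with the highest mean level. The 18 genes not tested were Mmp1a, Mmp1b, Mmp3, Mmp7, Mmp8, Mmp9, Mmp10, Mmp20, Mmp21, Mmp25, Mmp27, Adamts3, Adamts12, Adamts13, Adamts17, Adamts19, Adamts20 and Adamtsl3. Among them were 3 of 4 collagenases, both classical stromelysins, matrilysin, the gelatinase Mmp9 and the von Willebrand factor protease Adamts13. For 13 of the 18 no probe lay well above background on any array, both probes of Adamts13 included.

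**Figure D1:**
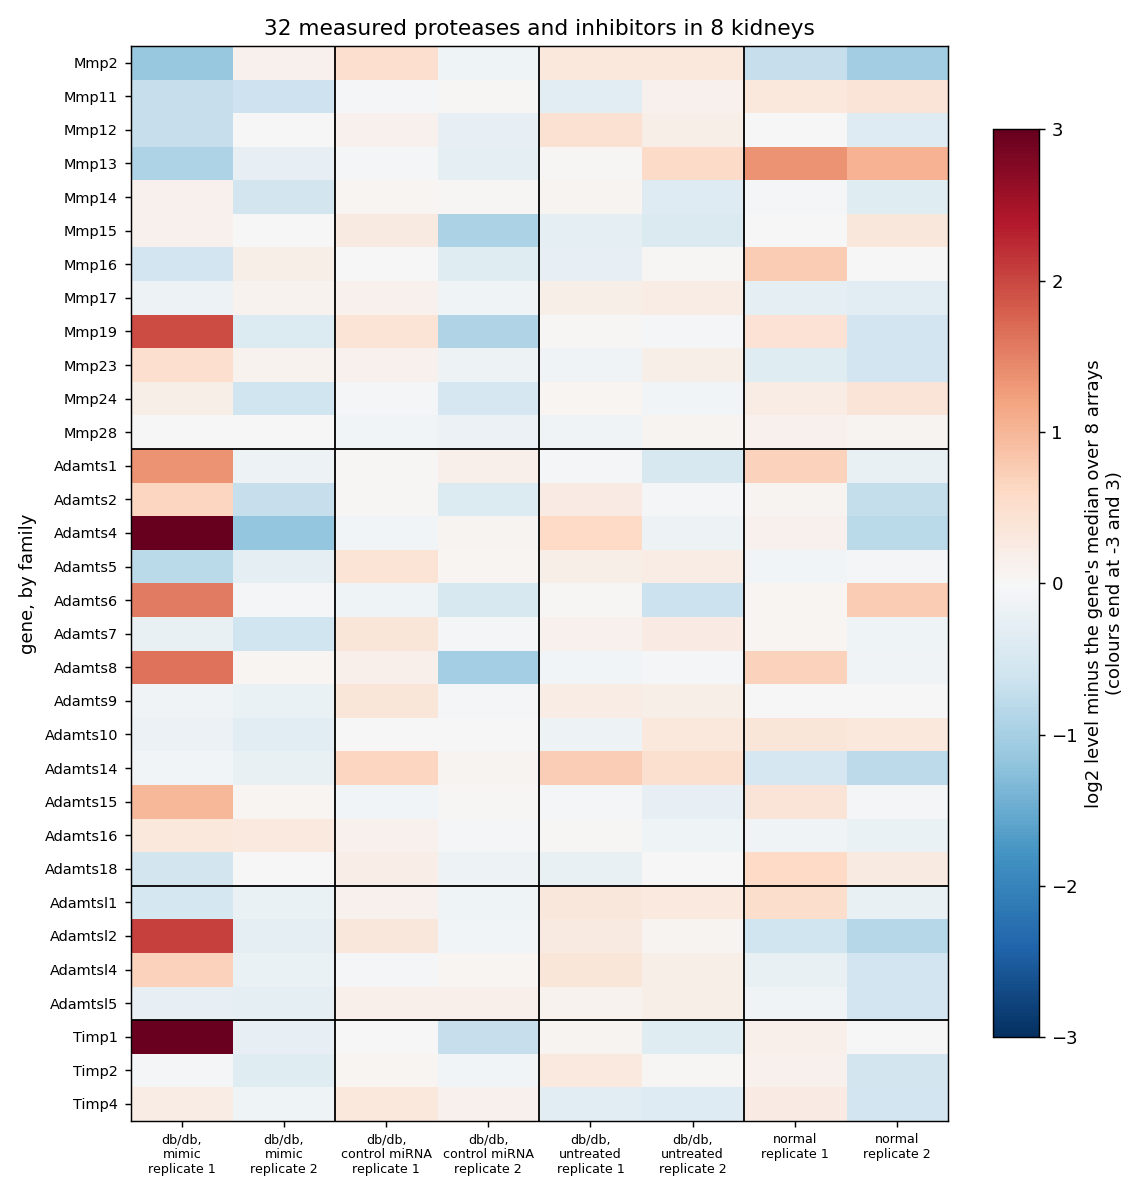
Log2 level of the 32 tested genes (rows, by family) on each of the 8 arrays (columns), minus the gene's median over the arrays, with red for higher and blue for lower. Adamts4 and Timp1 are deep red on mimic replicate 1 alone, and Mmp13 is red on both normal arrays.

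Untreated db/db kidney was set against normal kidney to read the diabetic genotype. Adamts14, which removes the amino-terminal propeptide of fibrillar procollagens, was the 1 gene of 32 that passed limma's test at an adjusted p under 0.05 (3.12%, against 3.35% of all 22368 genes tested in either direction and 1.41% that were higher). At an unadjusted p under 0.05 there were 7 of 32 (21.9%, against 24.8% of all genes). Its probe lies at chr10:60659860-60659919 (mm9, minus strand). The level was -0.54 and -0.80 in untreated db/db kidney, against -1.79 and -2.08 in normal kidney, and the arrays of the groups did not overlap. Adamts14 was 2.40-fold higher in db/db (log2 1.26 ± 0.22 SE, adjusted p = 0.0435). A second Adamts14 probe, at chr10:60660020-60660079, rose by 1.12 (adjusted p = 0.0489 over all probes). The call on the first probe did not hold without any 1 of the normal, untreated or control miRNA arrays, with adjusted p from 0.0571 to 0.242, or with no filter on dim probes (0.0843).

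Over the 32 genes the difference ranged from -0.88 for Mmp13 to 1.26 for Adamts14, with a median of 0.09 against -0.01 for all genes; with normexp background the members' median was -0.10, so no direction is given for the families. Both untreated arrays lay on the same side of both normal arrays for 20 of 32 genes, a share of 62.5% where all genes gave 63.3%. When mimic replicate 1 was left out of the fit, 5 genes rose in untreated db/db and 0 fell: Mmp2 (1.18, adjusted p = 0.0309), Adamtsl2 (0.90, 0.0349), Adamtsl4 (0.67, 0.0460), Mmp17 (0.50, 0.0461) and Adamts14 (0.0244). That is 15.6% of the genes, where 14.6% of all genes were called in either direction and 6.83% were higher. Leaving out mimic replicate 2 in its place gave the same fit here, because a single mimic array adds nothing to the estimated spread. It is thus not a second check.

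Mmp2 is gelatinase A, which cuts denatured collagen and type IV collagen. Its level was -2.86 and -2.86 in untreated db/db kidney, against -3.87 and -4.22 in normal kidney. The probe lay well above background on both db/db arrays and on 1 of the normal arrays. With all 8 arrays in the fit its difference of 1.18 ± 0.43 had an adjusted p of 0.159. Mmp17, a membrane-type enzyme anchored by a lipid, stood at -1.47 and -1.43 in untreated db/db, against -1.93 and -1.97 in normal kidney. Adamtsl2 and Adamtsl4, which bind fibrillin microfibrils, stood apart in the same direction. Adamtsl2 read -1.28 and -1.47 in untreated db/db, against -2.14 and -2.40 in normal kidney. Adamtsl4 read -1.47 and -1.67 in untreated db/db, against -2.06 and -2.41 in normal kidney.

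The rest of the largest differences did not pass in either fit. Mmp13 stood at -4.53 and -3.98 in untreated db/db and at -3.23 and -3.53 in normal kidney (difference -0.88, adjusted p = 0.136, and 0.0550 without mimic replicate 1). Adamts6 differed by -0.72 (0.465), Adamts4 by 0.56 (0.875), Adamts18 by -0.55 (0.225), Mmp15 by -0.52 (0.436) and Mmp12, the macrophage elastase, by 0.51 (0.310). Mmp14, the membrane-type enzyme that activates pro-Mmp2, differed by 0.05 ± 0.27 (0.931). The inhibitors differed by -0.20 for Timp1 (0.918), 0.38 for Timp2 (0.388) and -0.19 for Timp4 (0.722). An adjusted p over 0.05 does not show that a difference lies within the spread between arrays. For Mmp13 the arrays of the groups did not overlap, as for 63.3% of all genes.

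**Figure D2:**
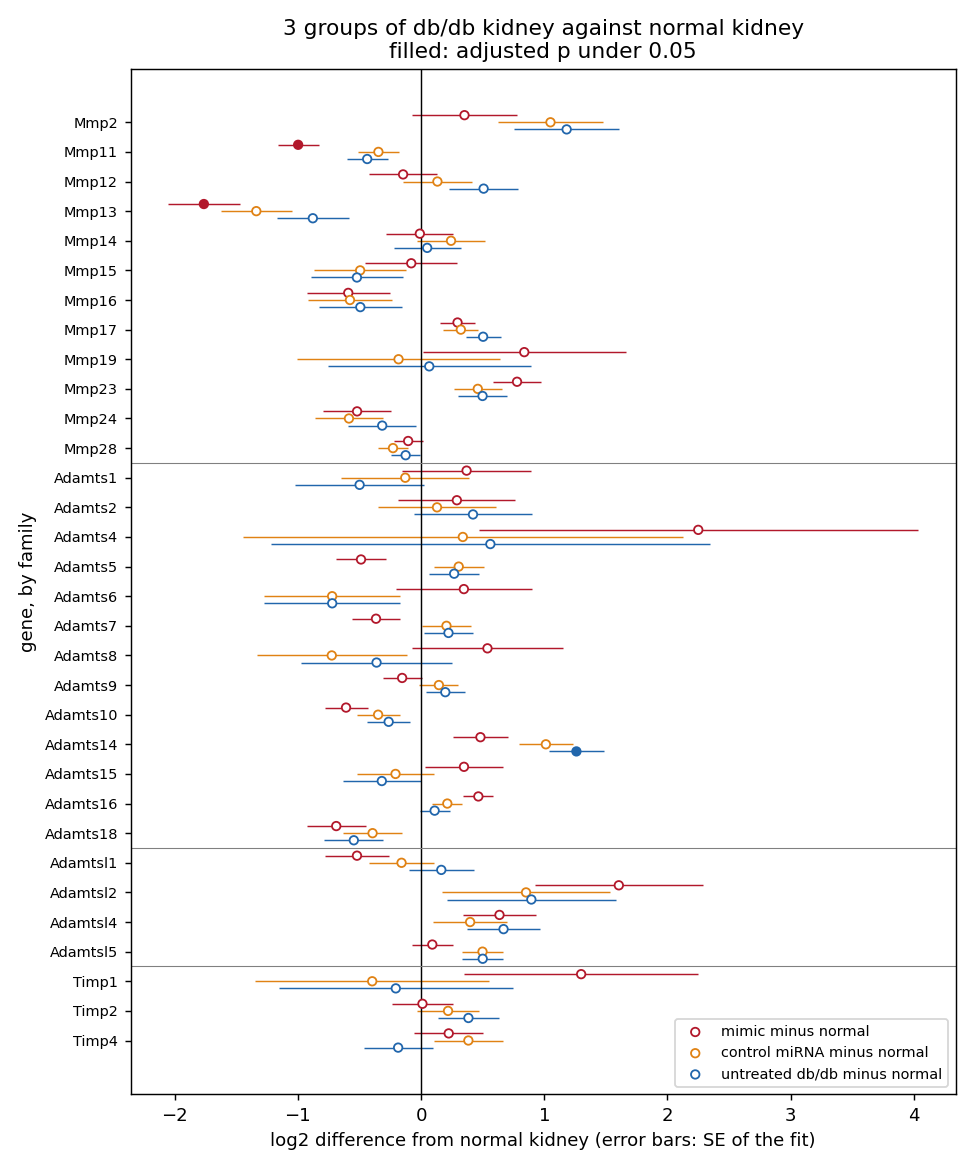
Log2 difference from normal kidney of each tested gene (rows, by family) for the mimic, control miRNA and untreated db/db groups, with bars for the SE of the fit to 8 arrays and filled points for an adjusted p under 0.05. Filled points stand at -1.76 (Mmp13) and -0.997 (Mmp11) for the mimic and at 1.26 (Adamts14) for untreated db/db kidney.

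Control miRNA kidney was set against the same normal arrays. limma called 0 of 32 genes (1.72% of all genes), while 4 had an unadjusted p under 0.05 (12.5%, against 21.5% of all genes), and both control miRNA arrays lay on 1 side of both normal arrays for 18 (56.2%, against 59.3%). Leaving out mimic replicate 1, 4 of 32 passed, 12.5% against 11% of all genes. Of them 3 rose (4.9% of all genes did) and 1 fell (6.08% of all genes did): Mmp2 (1.05, adjusted p = 0.0467), Adamts14 (1.01, 0.0465) and Adamtsl2 (0.85, 0.0458) were higher, and Mmp13 was lower (adjusted p = 0.0247). Levels in control miRNA kidney were -2.69 and -3.31 for Mmp2, -0.64 and -1.20 for Adamts14 and -1.20 and -1.63 for Adamtsl2, each pair above both normal arrays. With all 8 arrays the adjusted p was 0.227, 0.0806 and 0.516 in the same order, and 0.0797 for Mmp13. Adamts8 differed by -0.72 (0.537), Adamts6 by -0.72 (0.497), Mmp16, a membrane-type enzyme, by -0.58 (0.379), Adamtsl5 by 0.50 (0.166) and Mmp15 by -0.49 (0.493). Adamts8 and Mmp15 were not well above background on control miRNA replicate 2 (-5.25 and -5.03), nor was Adamts8 on normal replicate 2. Mmp24, a membrane-type enzyme best known from neurons, was not well above background on either control miRNA array and was at least 1.47-fold lower there (0.280). Of the inhibitors, Timp1 differed by -0.40 (0.843), Timp2 by 0.22 (0.652) and Timp4 by 0.38 (0.474).

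Mimic kidney was set against normal kidney as well. Here 2 of 32 genes passed, both lower after the mimic, 6.25% against 8.27% of all genes in either direction and 4.86% that were lower. Mmp13, an interstitial collagenase, has its probe at chr9:7282762-7282821 (mm9, plus strand). It stood at -5.48 and -4.80 in mimic kidney, against -3.23 and -3.53 in normal kidney. Neither mimic array was well above background, so the decrease is given as at least 2.05-fold. Mmp13 entered the test only through the normal and untreated groups, where it was higher. Neither control miRNA array was well above background for Mmp13 either (-4.59 and -4.83, at least 2.29-fold lower than normal), whereas both untreated arrays were. The fitted Mmp13 difference, to which the call belongs, was -1.76 (adjusted p = 0.0222) and uses the dim mimic readings. With normexp background it was -0.50 (0.0463). The call did not hold without either normal array (0.0824 and 0.112) or either control miRNA array (0.0505), with array weights (0.140), or in a fit of the 2 groups alone (0.109). With only probes well above background on all 8 arrays, Mmp13 was not tested.

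Mmp11 is stromelysin-3, an enzyme of stromal cells that is activated inside the cell by furin. Its probe lies at chr10:75386026-75386085 (mm9, minus strand). Mmp11 stood at -2.35 and -2.27 in mimic kidney, against -1.35 and -1.28 in normal kidney, a difference of -0.997 ± 0.167 (SE, adjusted p = 0.0237). The control miRNA arrays (-1.70 and -1.63) and untreated arrays (-1.98 and -1.52) lay between those of the mimic and normal groups. Its call did not hold without either normal array (0.0973 and 0.101), either control miRNA array (0.0583) or mimic replicate 1 (0.0504), with array weights (0.215), or in a fit of the 2 groups alone (0.112).

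Quantile normalization called 2 more genes in this comparison and both were higher after the mimic, Adamts16 (0.79, adjusted p = 0.0199) and Mmp23 (0.85, 0.0482), which turned the split to 2 higher and 2 lower. On the main scale Mmp23 differed by 0.78 (0.0624). None of the other large differences passed. Adamts4 differed by 2.25 (0.425), Timp1 by 1.30 (0.389) and Mmp19 by 0.84 (0.521), but by -0.82, -0.31 and -0.35 when mimic replicate 1 was left out, the opposite direction. Adamtsl2 differed by 1.61 (0.176), and by 0.45 without that array. Adamtsl4 differed by 0.64 (0.207), and by 0.19 without it. Adamts18 stood at -0.69 (0.123) and Adamts10 at -0.61 (0.0820), and at -0.40 and -0.70 without it. An unadjusted p under 0.05 was reached by 6 of 32 genes (18.8%, against 30% of all genes). Both mimic arrays lay on 1 side of both normal arrays for 15 of 32 genes (46.9%, against 53.7% of all genes). Without mimic replicate 1 Mmp13 alone of the 32 was called (3.12%, against 8.17% of all genes in either direction and 4.43% that were lower). Without mimic replicate 2, which leaves 1 mimic array assumed to vary like the other groups, 10 of 32 were called (28.1% of all genes), Adamts4, Timp1 and Adamtsl2 among those higher.

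**Figure D3:**
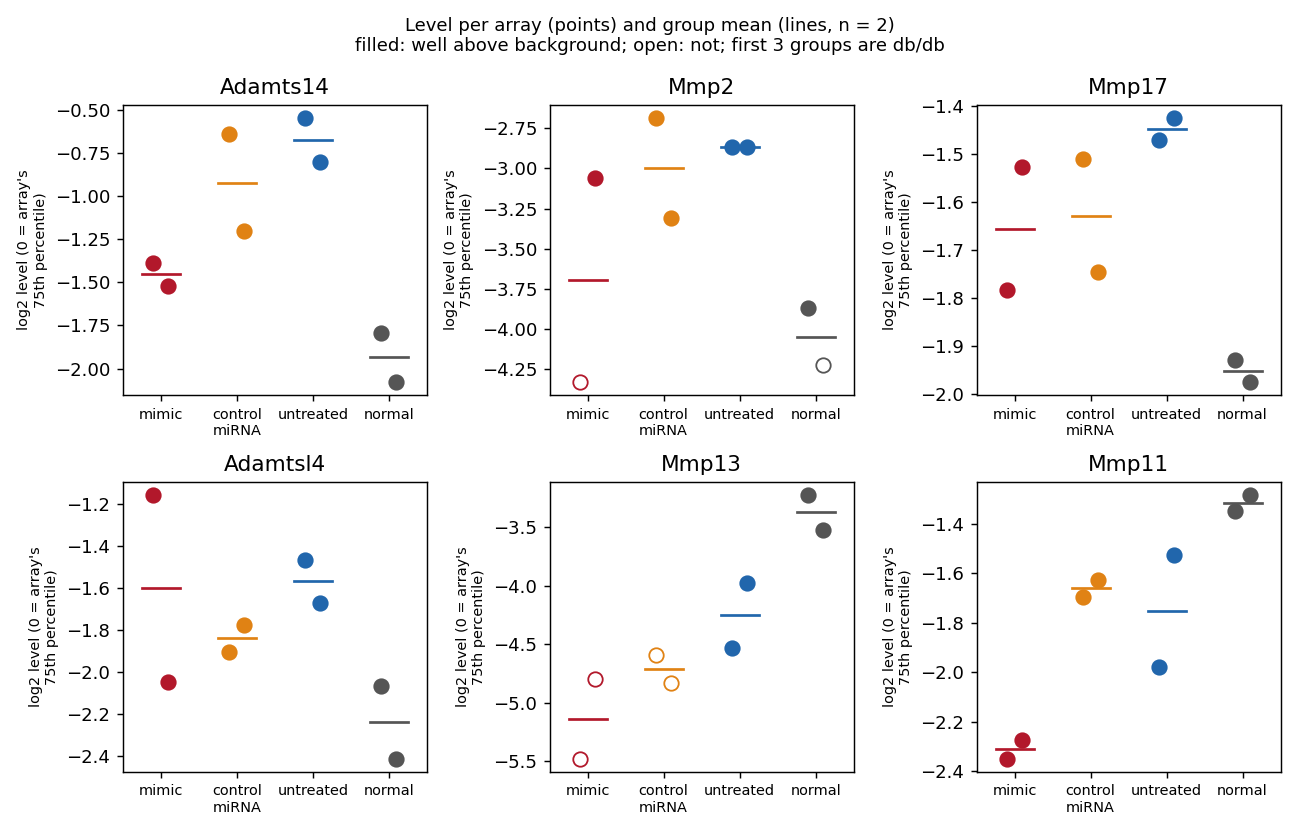
Log2 level of 6 genes on each array by group, with a line at the mean of 2 arrays and open points where the probe was not well above background. Adamts14 on both untreated arrays lies above both normal arrays, and Mmp13 and Mmp11 on both mimic arrays lie below them.

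All 6 db/db arrays lay on 1 side of both normal arrays for 11 of the 32 genes. The 5 that were higher in db/db were Adamts14, Adamtsl2, Adamtsl4, Mmp17 and Mmp23 (15.6%, against 16.2% of all genes). The 6 that were lower in db/db were Mmp11, Mmp13, Mmp24, Mmp28, Adamts10 and Adamts18 (18.8%, against 17.7% of all genes). Both shares are near those of the whole array. Mmp17 ranged from -1.78 to -1.43 over the db/db arrays, against -1.97 and -1.93 in normal kidney. Mmp28, epilysin, ranged from -1.95 to -1.71 over the db/db arrays and read -1.65 and -1.70 in normal kidney, so its gap was narrow. Adamts10 was narrow as well, at -2.562 on untreated replicate 2 against -2.558 on normal replicate 2. So was Mmp24, at -4.03 on mimic replicate 1 against -3.98 on normal replicate 1. A second Adamts10 probe went the other way in untreated db/db, at -2.84 and -2.92 against -2.98 and -2.99 in normal kidney. Mmp23 ranged from -1.43 to -0.79 over the db/db arrays, against -1.65 and -1.86 in normal kidney.

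Some other cell markers moved with the same groups, and their part in these results was not tested. The mean level of 9 macrophage markers was -0.36 to 1.39 on the db/db arrays, against 0.74 and 0.55 on the normal arrays, and that of 5 measured T and NK cell markers was -2.92 to -2.22 against -1.66 and -1.68. The 6 measured urothelial markers averaged -2.998 to -0.08 in db/db, against 1.17 and -0.74 in normal kidney, and 8 adipocyte markers -2.61 to -0.63 against 1.55 and -0.95. The 5 podocyte markers averaged 1.55 to 1.91 in db/db, against 0.64 and 0.51 in normal kidney, and the 3 distal tubule markers 2.34 to 3.19 against 1.48 and 1.70. The 7 endothelial markers averaged 1.35 to 1.62 in db/db, against 1.16 and 0.95 in normal kidney. The 9 mesangium and fibroblast markers averaged 0.50 to 1.33 in db/db, against 1.40 and 0.60 in normal kidney. Macrophage, urothelial, adipocyte, red cell, and mesangium and fibroblast averages overlapped between db/db and normal arrays. The 3 red cell markers averaged 2.09 to 3.63 on 5 db/db arrays and -1.91 on mimic replicate 2, against -1.35 and -0.60 in normal kidney. Every macrophage, podocyte and proximal tubule marker was well above background on all arrays.

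The mimic was compared with the control miRNA, which received the same kind of nanoparticle. limma called 0 of 32 genes and 0 of 22368 on the array (0%), and 4 of 32 had an unadjusted p under 0.05 (12.5%, against 9.1% of all genes). Without mimic replicate 1 the call was 0 of 32, against 0.51% of all genes. Without mimic replicate 2 it was 7 (13.6% of all genes), Adamts4, Timp1, Adamtsl2, Adamts6 and Adamts15 higher and Mmp2 and Adamts5 lower. The arrays of the groups were apart for 12 genes (37.5%, against 39.1%), 8 of them lower after the mimic (25%, against 20.3%). The smallest adjusted p of the 32 was 0.332, shared to this precision by Mmp11 (-0.65) and Adamts5 (-0.79). Adamts5, the aggrecanase, stood at -3.24 and -2.72 in mimic kidney, against -2.01 and -2.36 in control miRNA kidney.

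Several larger differences from the control miRNA came with mimic arrays over 2-fold apart. Adamts4 differed by 1.91, Timp1 by 1.70, Adamts8 by 1.26, Adamts6 by 1.07, Mmp19 by 1.02 and Adamtsl2 by 0.75 in the fit, with adjusted p from 0.597 to 0.724. Adamts8 was not well above background on control miRNA replicate 2 (-5.25), a reading that enters its difference. Leaving out mimic replicate 1 turned Adamts4 to -1.16, Adamtsl2 to -0.40 and Mmp19 to -0.16, and left Timp1 at 0.09, Adamts8 at 0.48 and Adamts6 at 0.27. Mmp2, not well above background on mimic replicate 1, differed by -0.70 (0.630), and by -0.06 without that array. Adamts7, which cuts cartilage oligomeric matrix protein, differed by -0.57 (0.471), and by -0.75 without it. Mmp13 was not well above background in either group, so no fold is given.

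Against untreated db/db kidney, which shares the mimic arrays with the comparison before it, limma again called 0 of 32 genes and 0 of 22368 (0%). An unadjusted p under 0.05 was reached by 8 of 32 (25%, against 13.9% of all genes), and by 6 without mimic replicate 1 (18.8%, against 10.5%). Without mimic replicate 1 the call was again 0 (0% of all genes), and without mimic replicate 2 it was 10 (18.7% of all genes). The arrays of the groups were apart for 18 genes (56.2%, against 47.4%), of which 13 were lower after the mimic (40.6%, against 25.8% of all genes). The smallest adjusted p was 0.232, for Adamts5 (-0.76). Adamts14 stood at -1.39 and -1.52 in mimic kidney, against -0.54 and -0.80 in untreated kidney, a difference of -0.78 (0.248). Mmp11 differed by -0.56 (0.261), Mmp2 by -0.83 (0.429) and Timp2 by -0.37 (0.518). Mmp13 was at least 1.11-fold lower (0.287), its mimic arrays not being well above background. Adamts4 differed by 1.69 (0.674), Adamts6 by 1.07 (0.431), Adamts8 by 0.90 (0.524), Adamts1 by 0.87 (0.478), Mmp19 by 0.77 (0.677) and Timp1 by 1.504 (0.495) with all arrays. With mimic replicate 1 left out Timp1 differed by -0.11, Adamts4 by -1.39 and Mmp19 by -0.41, the opposite direction. Adamts6 then differed by 0.27, Adamts8 by 0.11, Adamts1 by 0.13 and Mmp2 by -0.20.

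The nanoparticles with control miRNA were also set against untreated db/db kidney. limma called 0 of 32 genes and 0 of 22368 (0%), 0 of 32 had an unadjusted p under 0.05 (3.25% of all genes), and the arrays were apart for 7 (21.9%, against 40% of all genes). The call was 0 as well without mimic replicate 1. Timp4 was highest at 0.57, followed by Adamts1 at 0.37. Mmp12 differed by -0.37, Adamts8 by -0.36, Adamtsl1 by -0.32, Adamts2 by -0.29, Adamtsl4 by -0.27 and Mmp19 by -0.25. Adamts8 was not well above background on control miRNA replicate 2. Mmp13 was at least 1.25-fold lower, with neither control miRNA array well above background. Mmp24 lay well above background on 1 of the untreated arrays and on neither control miRNA array, so no fold is given. Timp4 stood at -3.64 and -3.83 in control miRNA kidney, against -4.27 and -4.35 in untreated kidney. This was the narrowest spread of differences among the 6 comparisons of these genes.

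The mimic arrays disagreed with each other over these genes more than any other pair. In the mimic group 9 of 32 genes lay over 2-fold apart (11.1% of all genes did), against 3 after control miRNA (1.60%), 0 in untreated db/db (0.751%) and 0 in normal kidney (3.09%). On 8 of the 9 genes mimic replicate 1 was the higher array, whereas of all genes with such a gap 1130 were higher on it and 1344 lower. Adamts4, aggrecanase-1, stood at 3.59 on mimic replicate 1 and at -2.56 on mimic replicate 2, while the other 6 arrays lay between -2.21 and -0.80. The 2 mimic arrays were thus 70.9-fold apart, and 10 of 22368 genes, Adamts4 included, had a gap at least as wide. A second Adamts4 probe read 0.13 on mimic replicate 1, against -4.16 on replicate 2 and -3.95 to -3.49 elsewhere. A further probe that did not pass the filter read 0.67 on mimic replicate 1. Neither of these 2 probes was well above background on mimic replicate 2.

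Timp1, the inhibitor of this set that is most readily induced by injury, stood at 0.91 on mimic replicate 1 and -2.31 on replicate 2, while the other 6 arrays lay between -2.74 and -1.92. The pair was 9.32-fold apart. Its probe lies at chrX:20451675-20451733 (mm9, plus strand) and is printed because the widest gap of an inhibitor rests on this single probe.
Timp1 probe: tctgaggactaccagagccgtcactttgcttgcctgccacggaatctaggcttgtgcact
Timp2 and Timp4 did not share the gap, at 3.86 and 3.53 for Timp2 and -3.72 and -4.07 for Timp4 on mimic replicates 1 and 2. Mmp19 was 5.15-fold apart (-1.52 and -3.89), Adamtsl2 4.98-fold (0.49 and -1.82), Adamts6 3.03-fold, Adamts8 2.97-fold, Adamts1 2.80-fold (3.11 and 1.62) and Adamts2 2.51-fold. Second tested probes gave narrower gaps, at -3.86 and -4.41 for Adamts6 and at -3.42 and -4.20 for Adamts2. That Adamts6 probe was not well above background on mimic replicate 2. Adamts1, Adamts4, Adamts8 and Adamts15 (1.14 and 0.20) cut proteoglycans such as versican and aggrecan, and all 4 were higher on mimic replicate 1, while Adamts5 and Adamts9 were at -3.24 and -2.72 and at -0.01 and -0.09. Mmp2 was the 1 gene over 2-fold lower on mimic replicate 1 (-4.33 and -3.06), where its probe was not well above background.

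**Figure D4:**
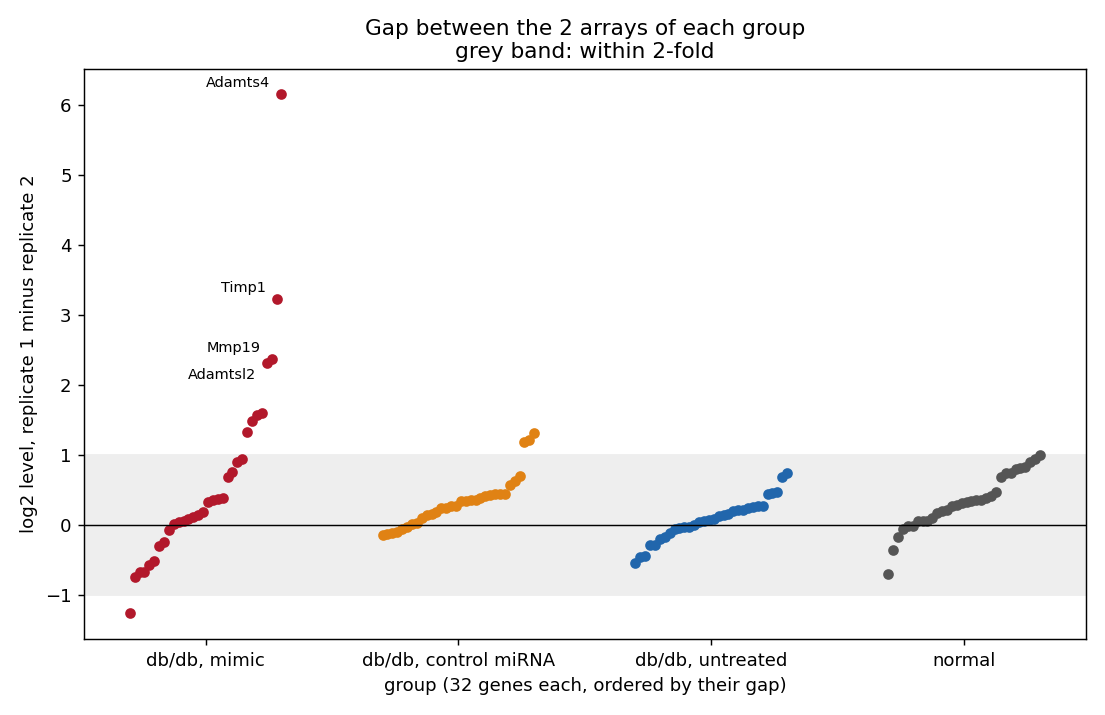
Log2 level on replicate 1 minus that on replicate 2 for the 32 genes in each group, with the grey band at 2-fold. The mimic points reach 6.15 (Adamts4) and 3.22 (Timp1), while no point of the untreated and normal groups leaves the band.

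Proteases outside the test were also high on mimic replicate 1. Mmp7 is matrilysin, made by epithelium and known as a product of injured kidney tubules. Both of its probes were well above background on mimic replicate 1 only. The probe at chr9:7699476-7699535 (mm9) read 0.14 there, at least 22.1-fold over every other array, and the probe at chr9:7697641-7697700 read -1.13, at least 9.19-fold. The second Mmp7 probe and the Mmp9 probe at chr2:164779091-164780300 (mm9, plus strand) are printed, since 1 array alone holds the signal of each.
Mmp7 probe: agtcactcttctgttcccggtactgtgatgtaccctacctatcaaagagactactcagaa
Mmp9 probe: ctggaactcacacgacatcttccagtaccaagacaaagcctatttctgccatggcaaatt
Mmp8, the neutrophil collagenase, read -0.26 on mimic replicate 1 and -4.16 on replicate 2. It was also well above background on replicate 2 of control miRNA (-4.06), replicate 2 of untreated (-4.31) and replicate 1 of normal kidney (-3.59), and mimic replicate 1 was 10.1-fold over the highest of these. Mmp3, stromelysin-1, and Mmp9, gelatinase B, were close to the limit on mimic replicate 1, at -3.91 and -4.00, at least 1.33-fold and 1.26-fold over all other arrays. The other Mmp9 probe was well above background on none. Adamts20 passed on replicate 2 of untreated db/db alone (-4.22).

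**Figure D5:**
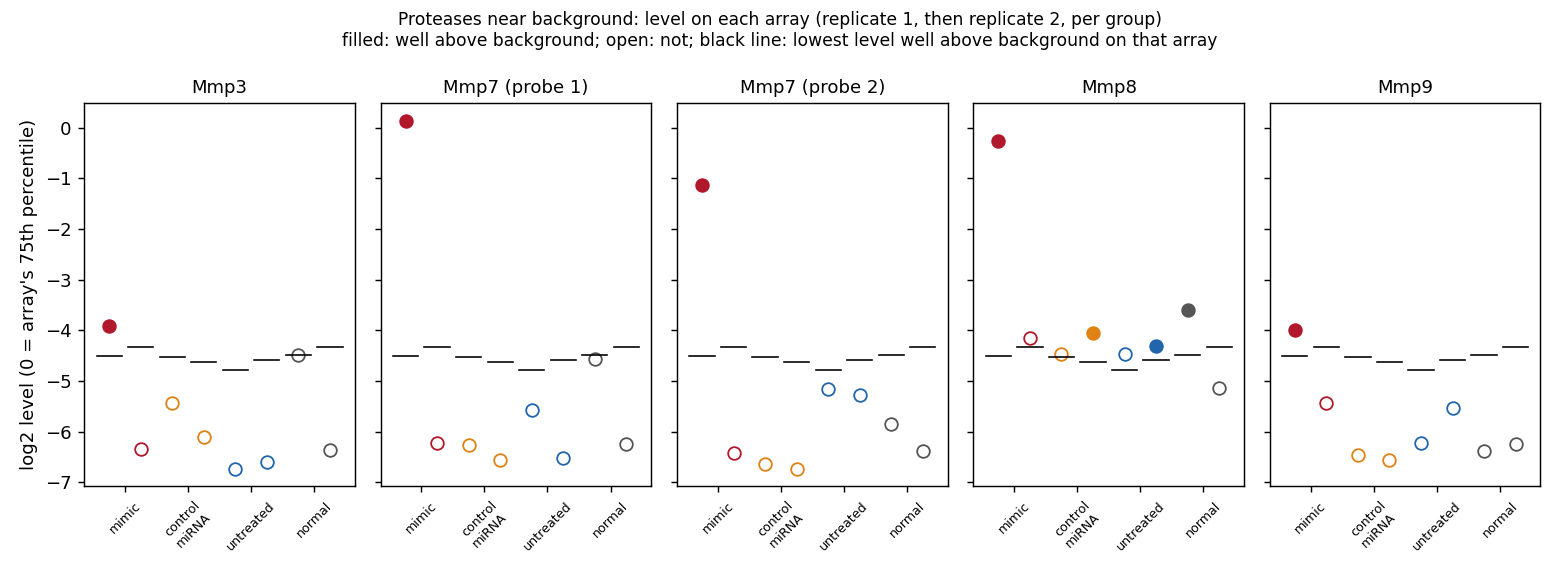
Log2 level of Mmp3, Mmp7 (2 probes), Mmp8 and Mmp9 on each array by group, with filled points where the probe was well above background and a black line at the lowest level that was so called on that array. Mimic replicate 1 stands farthest over the line, at 0.14 and -1.13 for Mmp7 and -0.26 for Mmp8.

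Injury, neutrophil and macrophage markers were on average higher on the same array, while T and NK cell markers were not. The 4 measured tubular injury markers averaged 2.08 on mimic replicate 1 and -1.47 on replicate 2, against -2.06 to -0.97 elsewhere, and all 4 were well above background on every array. Lcn2 among them read 5.498 on mimic replicate 1, and at most 0.06 on every other array. The 8 measured neutrophil markers averaged 0.76 on mimic replicate 1, where 7 were above background, and -1.10 to -0.72 elsewhere, with S100a9 at 5.17 against at most 0.16. Mpo was at -4.44 and Elane at 0.14 on that array, their lowest levels of the 8. The 9 macrophage markers averaged 1.39 there, against -0.36 to 0.74 elsewhere. Ms4a7 among them was at -2.25, its lowest level, and Csf1r at 3.61, against 4.44 and 4.30 in normal kidney. The rest of the macrophage markers were at their highest on that array. The 5 measured T and NK cell markers averaged -2.78 there, against -2.92 to -1.66 elsewhere. The 8 proximal tubule markers averaged 6.63 there, against 7.15 to 7.48 elsewhere. The 3 red cell markers averaged 3.63 on mimic replicate 1 and -1.91 on replicate 2. The part of these cells in the protease levels was not tested.

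Probes of 1 gene did not always give 1 answer, and 11 genes had more than 1 tested probe. Adamts5 was read by 2 probes on chromosome 16, at 85899450 and 85859201 (mm9 starts, minus strand). The second read -3.30 and -3.26 in untreated db/db and -3.44 and -3.57 in control miRNA kidney, against -4.94 and -5.63 in normal kidney. Neither normal array was well above background for it, so the increase is given as at least 2.17-fold in untreated db/db and at least 1.86-fold after control miRNA. The limma adjusted p over all probes, 0.0222 and 0.0392, belongs to fitted differences of 2.00 and 1.78, which use those dim normal readings. This probe entered the test only through the untreated and control miRNA groups, where it was high. The first probe, which stands for the gene above, differed by 0.27 (0.451) and 0.31 (0.429). After the mimic the second probe read -4.48 and -4.00 and was well above background on replicate 2 only, so no difference from normal is given, and the first probe gave -0.49 (0.175). Over all probes, 3 of 46 passed for untreated db/db against normal (6.52%, against 3.84% of all probes) and 1 of 46 for control miRNA against normal (2.17%, against 1.51%). The second Adamts5 probe is counted in both. For the mimic against normal 2 of 46 passed, the probes of Mmp13 and Mmp11 (4.35%, against 7.37%).

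The second Adamts14 probe also parted from the first in the mimic group. It read -4.24 and -3.80 in mimic kidney, against -3.75 and -3.94 in normal kidney, a difference of -0.17 where the first gave 0.48. Both probes were higher in untreated db/db and control miRNA kidney than in normal kidney. The other Adamtsl1 probe was not well above background on either untreated array. Directions given for these genes hold for the probe named.

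Partner genes of the system were counted as lists outside the rule. Of 30 other regulators of matrix proteolysis 27 were measured. limma called 0 for untreated db/db or control miRNA against normal kidney, while 6 of 27 had an unadjusted p under 0.05 in each, where 24.8% and 21.5% of all genes did. In the fit without mimic replicate 1, 2 were higher and 4 lower in untreated db/db, and 2 higher and 2 lower after control miRNA, where 14.6% and 11% of all genes were called. For the mimic against normal kidney 14 of 27 had an unadjusted p under 0.05 (30% of all genes did). By adjusted p 1 rose and 3 fell, where 8.27% of all genes were called: Serpine2, an inhibitor of serine proteases, was higher by 1.48 (adjusted p = 0.0456), Plau, the urokinase that starts the plasmin cascade, fell by 2.12 (0.0444), Mep1a, a brush border metalloprotease, fell by 1.37 (0.0395) and Timp3, the matrix-bound inhibitor, fell by 0.72 (0.0311, and 0.0565 without mimic replicate 1). Timp3 stood at 6.65 and 6.87 in mimic kidney, against 7.45 and 7.51 in normal kidney. Plau stood at 2.62 and 3.98 in mimic kidney, against 5.09 and 5.75 in normal kidney. Mep1a read 6.44 and 7.35 against 8.22 and 8.31, and Serpine2 4.41 and 3.43 against 2.57 and 2.30. In all of these genes mimic replicate 1 lay farther from the normal arrays than replicate 2. The median over the 27 was 0.09, against -0.04 for all genes, and -0.06 without mimic replicate 1.

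Of 28 matrix substrates 25 were measured, and 1, 1 and 2 passed in untreated db/db, control miRNA and mimic kidney against normal, where 3.35%, 1.72% and 8.27% of all genes did. Col4a3, a chain of the mature glomerular basement membrane, fell in all 3 db/db groups, by 1.25 after the mimic (0.0192), by 1.24 after control miRNA (0.0416) and by 1.30 in untreated db/db (0.0308), and these comparisons share their normal arrays. Hspg2, the basement membrane proteoglycan perlecan, fell by 1.03 after the mimic (0.0317, and 0.0669 without mimic replicate 1). The other 24 substrates did not pass against normal kidney in untreated db/db or control miRNA kidney, nor the other 23 in mimic kidney. In the fit without mimic replicate 1, 2 substrates were higher and 3 lower in untreated db/db, 1 higher and 2 lower after control miRNA, and 1 higher and 1 lower after the mimic, beside 14.6%, 11% and 8.17% of all genes. Plg, A2m, Tll2, Acan, Bcan and Tnc were not above the detection filter.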

How the data were processed

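Kidney RNA was labelled with Cy3 and read on 1-colour Agilent arrays, 8 in all. The deposited intensity values are the scanner's processed signals, background-subtracted and detrended per spot by Feature Extraction 12.0.3.1, per the file headers, and probe positions are on mm9. The deposited series table holds a ratio, which matched the 75th-percentile scaled signal of each probe over its median when set against the scanner values. It served as an alternative only, and the calls of spots well above background were used as deposited by the authors.

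Spots of a probe were averaged after outlier and control spots were left out, and log2 signals were set relative to the 75th percentile of each array. limma 3.58.1 in R 4.3.3 was fitted to all 4 groups (lmFit and eBayes), with Benjamini-Hochberg adjustment over 22368 genes for each of 6 comparisons. SE is that of the fit. With 2 arrays a group an exact permutation test cannot go below p = 0.333, so none is given for single genes. A dim group is bounded by the lowest signal well above background on each of its arrays. The adjusted p beside a bound is that of the fitted difference, which uses the dim readings themselves. Genes named are those called, those of a list of main enzymes and inhibitors, the 10 largest differences in each comparison, and all genes not tested. The members and lists were chosen with earlier results of these data known. The fit was tested on simulated data with the same spread in every group. The real mimic arrays lay farther apart than those of other groups, so that test does not cover this feature.

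Same-numbered samples did not deviate together (correlations of their deviations -0.02 to 0.16), so numbers only name samples. Alternatives were background correction, normalization, filters, probes, the deposited ratios, array weights, blocks, 2 groups only and leaving out each array.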

Additional observations from a re-analysis of the deposited data

How the results depend on the processing

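Counts of members passing at an adjusted p under 0.05 moved with several choices. For untreated db/db against normal (1) they were 2 with quantile normalization, 0 with no filter on dim probes, 3 over all probes, 3 in a fit of the 2 groups only, and 0 to 5 on leaving out 1 array. For control miRNA against normal (0) they were 1 over all probes, 1 with 2 groups only, and 0 to 4 on leaving out 1 array. For the mimic against normal (2) they were 4 with quantile normalization, 3 with no filter on dim probes, 1 with probes well above background on all 8 arrays, 0 with array weights, 0 with 2 groups only, and 0 to 10 on leaving out 1 array. For the mimic against control miRNA they were 0 to 7, and against untreated db/db 0 to 10, on leaving out 1 array, the highest counts coming without mimic replicate 2. Control miRNA against untreated db/db kept 0 in every setting run. With the replicate number as a block the counts for the 3 comparisons with normal were 1, 0 and 2, as without it; over all genes the block gave 429, 180 and 1426 calls, against 749, 385 and 1849. With normexp background 5 of 32 differences between untreated db/db and normal turned direction. Dim probes limit Mmp13 and Mmp24 (well above background on 4 of 8 arrays), Mmp12 and Mmp15 (5), Mmp2 and Adamts8 (6), and Mmp16 and Timp4 (7), and 2 arrays a group limit all values.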
